A study of Mus musculus with 26 samples.

Results

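The 409 regions described here are HindIII restriction fragments of mouse chromosome 5 that lie around lnc-Crot, a long noncoding RNA locus named after its neighbour Crot. Crot encodes carnitine O-octanoyltransferase, a peroxisomal enzyme of fatty acid oxidation. A fragment was kept when its midpoint lay more than 10 kb and at most 1 Mb from the midpoint of the bait fragment. The bait fragment is chr5:9042517-9044511 in the mouse build mm9. Only position chose the members among the listed fragments, but a fragment was listed only if it had a count in at least 1 library. The members are 409 of the 2610 chromosome 5 fragments listed in this way. Of the others, 5 lay within 10 kb of the bait and 2196 beyond 1 Mb. Coordinates are printed as the authors list them, and neighbouring listed fragments were most often separated by exactly 6 positions, the length of the HindIII site.

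The contacts of lnc-Crot were measured by 4C in livers of wild-type C57BL/6 mice, 8 weeks old, 3 collected at CT6 and 3 at CT18. All 6 mice had free access to food, were entrained to a light-dark cycle and then spent 2 days in constant darkness, and circadian time counts from the hour at which the lights used to come on. Each library came from whole liver, so a count is an average over all the cell types of the organ. The 2 times lie in the subjective day and the subjective night, and the design compares the surroundings of the locus between them. Values in a row below are those of livers 1, 2 and 3.

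In 4C, chromatin is cut with a restriction enzyme, here HindIII, and ends that lie close together in the nucleus are ligated. A cut with a second enzyme, here DpnII, and a circularisation follow, and primers in the bait then amplify whatever was joined to it. Contacts of any locus fall with genomic distance because a chromosome is a continuous polymer, and regulatory contacts, domain borders and compartments modulate that fall. Amplification makes many reads from 1 ligation event, so reads are not independent molecules, and a fragment with many reads in a single library can stand for 1 event.

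Genes stand in a fixed order along this stretch. In the RefSeq annotation of GRCm38.p6, the genes next to Crot towards lower coordinates are Abcb4, Abcb1b and Abcb1a, which encode membrane transporters of phospholipids and drugs, then Rundc3b, Slc25a40, Dbf4 and Adam22. Towards higher coordinates are Tmem243, Dmtf1, Elapor2 and Grm3. The order is background only: that annotation is of another build than the files, so which fragment holds which gene, exon or intron was not analysed here.

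The libraries held 864391 to 1852389 counts on chromosome 5 at CT6 and 1585870 to 2671527 at CT18. Low counts recurred between libraries. Beyond 1 Mb, all 212 fragments with at least 1000 counts in CT18 liver 1 also had a count in CT18 liver 2, at a median of 1.29% of the first (quartiles 1.15% and 1.43%). Where CT18 liver 1 had 0, CT18 liver 2 had a count on 25.3% of fragments. The next closest pairs were CT18 liver 2 into CT18 liver 1 (157 of 165 fragments, median 0.115%), CT6 liver 3 into CT6 liver 2 (81 of 92, 0.112%) and CT6 liver 2 into CT6 liver 3 (155 of 176, 0.0814%). In the 26 other ordered pairs 25.3% to 63.8% of such fragments had a count, at medians of 0.0304% to 0.0547%. Where the first library had 0, the second had a count about as often in some of these pairs and less often in others. For CT6 liver 1 into CT18 liver 2 the shares were 39.8% and, where the first had 0, 43.0%. For CT18 liver 3 into CT6 liver 3 they were 63.8% and 34.3%. The source of the shared low counts was not tested. Most results on detection and reproducibility are therefore given for any count and again for own counts. Own counts here are counts of at least 10 that are also more than 3% of the highest count of that fragment in another library. Setting the rest to 0 removed 0.0692% to 0.861% of the counts of the 409 fragments in a library.

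The 409 fragments comprised 236 on the lower-coordinate side of the bait and 173 on the higher-coordinate side. Their lengths ran from 1 to 17796 bases, with a median of 1825 and quartiles of 746 and 3938, and 13 were under 100 bases. Together they covered 1142 kb of the 1980 kb in the window, which is 57.7%, with 68.2% covered on the lower side and 47.2% on the higher side. The rest of the span had no fragment listed in any of the 6 libraries. The longest stretch without one, 71.5 kb at chr5:9783820-9855332, was on the higher side.

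The fragments took 37.2%, 39.1% and 31.3% of the chromosome 5 counts in the CT6 livers and 45.5%, 40.1% and 43.8% in the CT18 livers. The 95% Wilson interval of each share was at most 0.101 percentage points wide on either side, which covers counting error only. A further 23.7% to 27.7% fell on the 5 fragments within 10 kb, the bait itself included, and 30.8% to 41.0% beyond 1 Mb. In a single liver 227, 262 and 245 of the 409 fragments had a count at CT6, and 296, 309 and 230 at CT18. Own counts stood on far fewer, 87, 151 and 91 at CT6 and 201, 165 and 146 at CT18. The shallow libraries, CT6 livers 1 and 3, had the lowest numbers of own counts, and the deepest, CT18 liver 1, the highest.

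**Figure D1:**
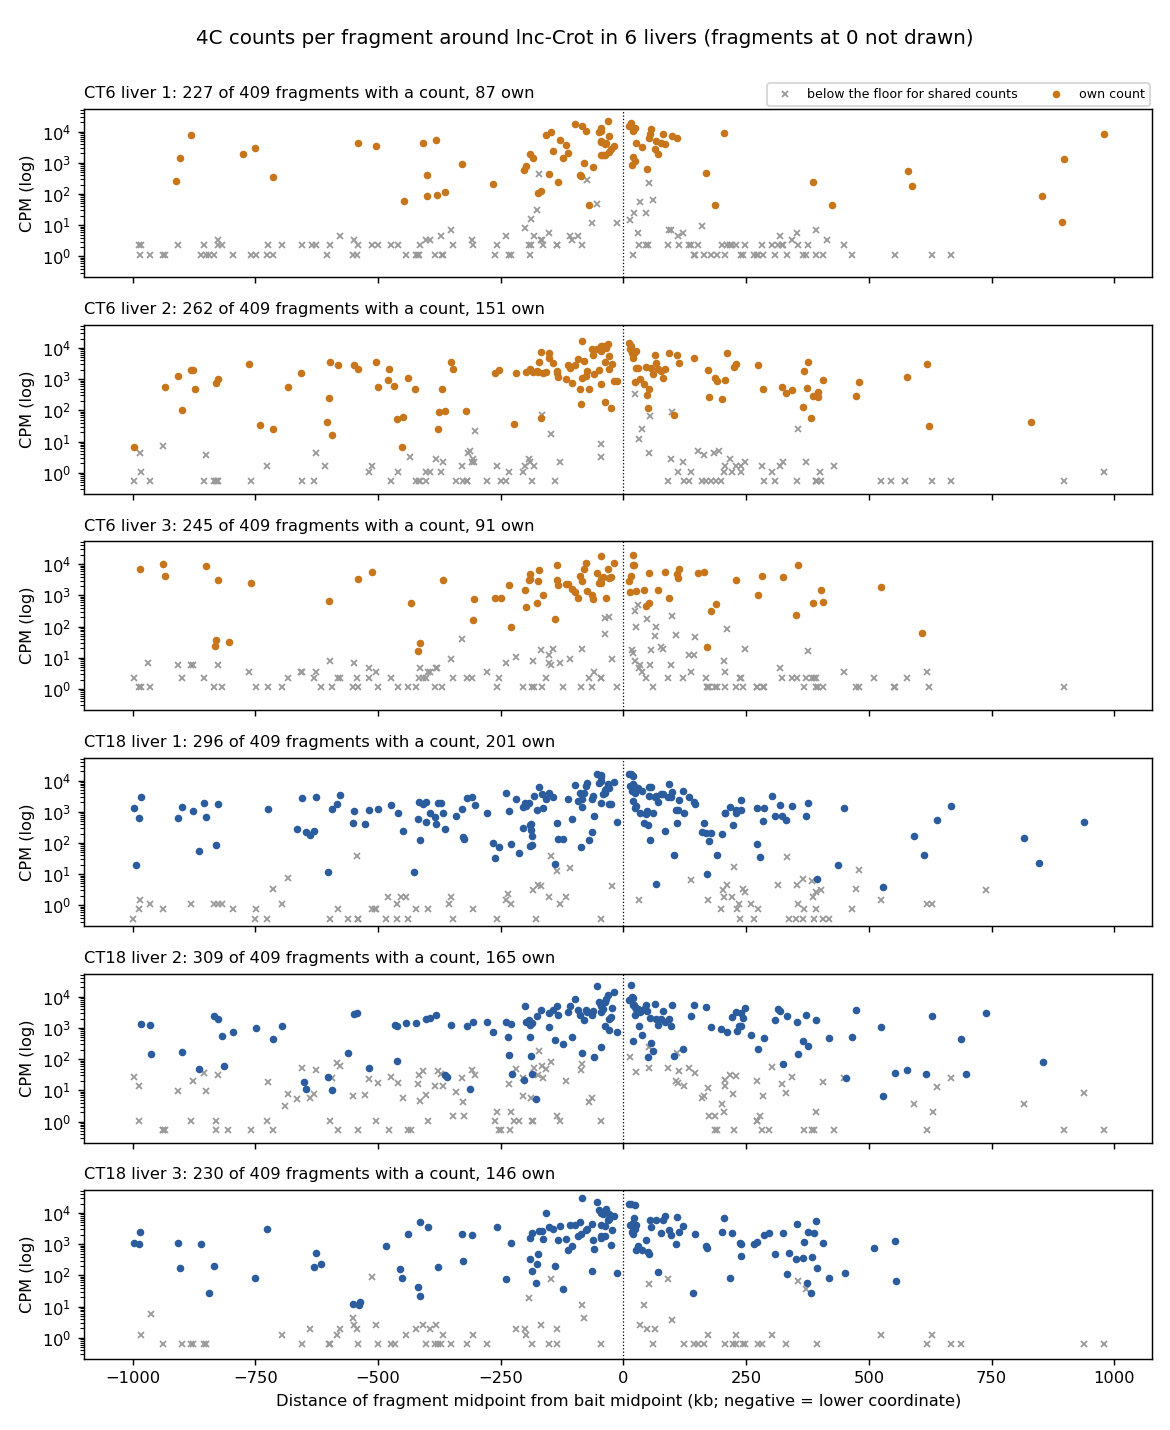
CPM (counts per 1000000 chromosome 5 counts of the library, log axis) of each of the 409 fragments against the distance of its midpoint from the bait midpoint in kb, with 1 panel per liver; filled circles are own counts, crosses are counts at or below the floor for shared counts, and fragments at 0 are not drawn. Own counts crowd around the bait in every liver and thin out beyond 200 kb, where crosses near 1 CPM are common.

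Counts were concentrated near the bait and on few fragments. In each liver 14 to 26 fragments held 50% of the counts of the window, and the 10 fragments with the highest counts held 27.8% to 40.2%. The distance within which 50% of the counts lay was 56.5, 65.9 and 92.0 kb in CT6 livers 1, 2 and 3 and 59.8, 63.2 and 63.2 kb in the CT18 livers. The first 100 kb on either side held 73.2%, 62.7% and 50.9% at CT6 and 67.0%, 62.6% and 68.6% at CT18. CT6 liver 3 was the most spread out of the 6 on both measures. The first 200 kb held 73.7% to 85.2%.

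Density was summed over both sides in 8 distance bins of equal log width, in CPM (counts per 1000000 chromosome 5 counts of the library) per kb of genome. The mean over the 6 livers was 2341 CPM per kb at 10 to 17.8 kb and 2550 at 17.8 to 31.6 kb. It then fell at every step, to 1547, 825.6, 325.6, 115.8, 66.0 and 27.7 CPM per kb in the last bin, 562.3 to 1000 kb. A straight line through the log10 density on log10 distance had a slope of -1.30, -1.21 and -0.89 in the CT6 livers and -1.21, -1.22 and -1.35 in the CT18 livers (mean -1.19 ± 0.16, SD, n = 6). CT6 liver 3 had the shallowest slope and CT18 liver 3 the steepest.

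The side with lower coordinates held more counts than the side with higher coordinates in all 6 livers. The higher side took 42.3%, 41.8% and 38.3% of the window's counts in the CT6 livers and 43.7%, 47.1% and 44.0% at CT18. As a log2 ratio of higher over lower side this was -0.45, -0.48 and -0.69 at CT6 and -0.37, -0.17 and -0.35 at CT18, a mean of -0.42 ± 0.17 (SD, n = 6). A two-sided exact sign-flip permutation test gave p = 0.03125, the smallest that 6 libraries allow, and p = 0.0781 after Benjamini-Hochberg adjustment over the 5 tests of the whole window made here. With the window opened at 20 kb in place of 10 kb the mean log2 ratio was -0.85. The lower side also had the more listed fragments and the larger listed length (above), and the part these play in the difference was not tested.

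The order of the sides changed with distance. At 10 to 20 kb the higher side held 12.2% ± 1.88 of the window's counts (SD, n = 6) on 6 fragments, and the lower side 2.07% ± 1.27 on 2 fragments, with the higher side ahead in 6 of 6 livers. At 20 to 50 kb the lower side was ahead in 6 of 6, with 18.5% ± 3.5 against 8.49% ± 1.59. It was ahead in 5 of 6 at 50 to 100 kb, with 13.9% ± 2.41 against 9.10% ± 4.14. At 100 to 200 kb it led again in 6 of 6, with 10.6% ± 2.45 against 4.56% ± 2.26. The higher side returned to the lead at 200 to 300 kb in 6 of 6 livers, with 3.67% ± 1.15 against 1.63% ± 0.985. At 300 to 500 kb each side led in 3 livers, at 3.59% ± 2.16 and 3.57% ± 1.41.

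Farther out the lower side held more. At 500 to 700 kb it had 2.63% ± 1.56 against 0.657% ± 0.358 and led in 5 of 6 livers. At 700 to 1000 kb it had 4.38% ± 3.51 against 0.589% ± 1.04 and led in 6 of 6. Listed fragments covered 43.7% of that zone on the lower side (48 fragments) and 9.55% on the higher side (10 fragments). At 500 to 700 kb they covered 67.0% and 32.2%. In these 2 zones the side with more of its span listed also held more counts, and share and listed span cannot be told apart here. Nearer the bait the side with more of its span listed did not always hold more.

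**Figure D2:**
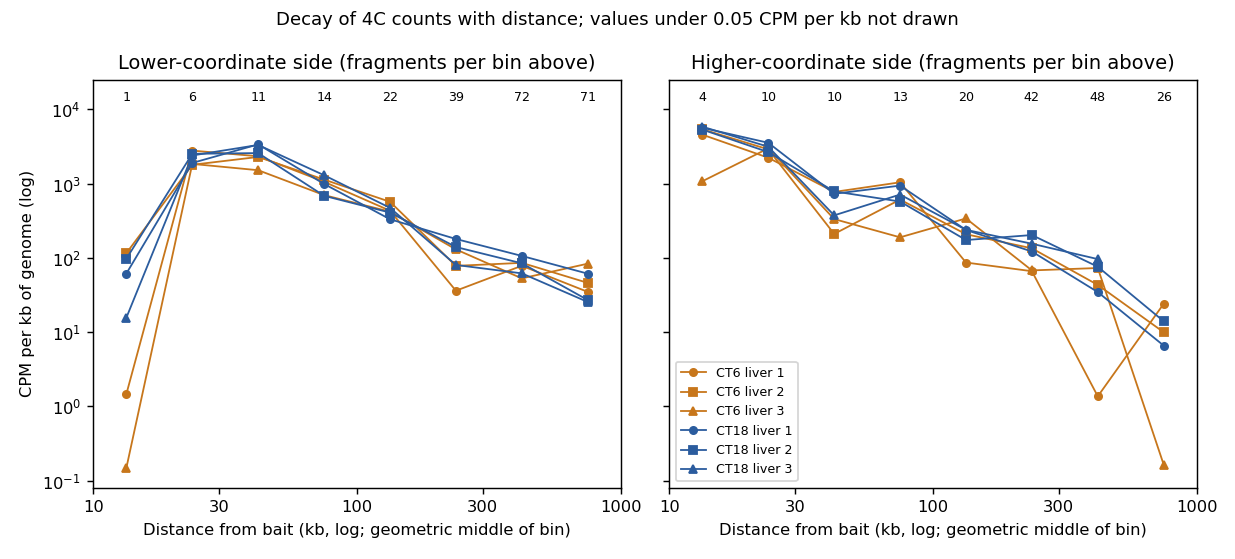
Density in CPM per kb of genome (log axis) against distance from the bait (log axis, plotted at the geometric middle of each of 8 bins) for the lower-coordinate side (left panel) and the higher-coordinate side (right panel), 1 line per liver, with the number of fragments per bin printed above. On the higher side 5 of the 6 lines start at their top and CT6 liver 3 peaks in the bin after it, while on the lower side the first bin, which holds 1 fragment, lies below the next 3 bins in every liver.

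Fitted for each side alone, the slope on the higher side was -1.73, -1.40 and -1.74 at CT6 and -1.60, -1.34 and -2.36 at CT18. On the lower side it was -0.19, -0.67 and 0.39 at CT6 and -0.50, -0.73 and -0.56 at CT18. The higher side was the steeper in 6 of 6 livers, by -1.32 ± 0.61 (SD; two-sided exact sign-flip permutation test, p = 0.03125, the smallest possible; adjusted p = 0.0781 over 5 tests). The innermost bin of the lower side holds only the fragment chr5:9028004-9030862 at -14.1 kb, with 10, 1666 and 1 counts in the CT6 livers and 1278, 1465 and 193 in the CT18 livers. With the window opened at 20 kb in place of 10 kb the difference was -0.55, in 5 of 6 livers (exact sign-flip permutation p = 0.0625). That opening also leaves out inner fragments of the higher side and moves the bins. With shared counts set to 0 the difference was -0.66. This setting emptied the innermost lower bin in CT6 livers 1 and 3 and the outermost higher bin in CT18 liver 3. Empty bins were left out of the fit, so the bins fitted then differed between livers. With the number of fragments that had a count in place of reads the difference was -0.50. With shared counts also set to 0 it was -0.29, the smallest of the alternatives, in 6 of 6 livers. In the outermost bin listed fragments covered 14.1% of the span on the higher side and 48.2% on the lower side. Density in that bin on the higher side ran from 0.0101 CPM per kb in CT18 liver 3 to 24.0 in CT6 liver 1. CT18 liver 3, with the steepest slope on that side, had own counts on 0 of the 26 fragments there. With the mean count per listed fragment in place of density per kb of genome the difference was -0.88, and with 16 distance bins -1.03. On the bait's side, the neighbour of chr5:9028004-9030862 is chr5:9030868-9039675, a long fragment whose midpoint lies within 10 kb and which is therefore no member. It carried 15635, 64880 and 16379 counts in the CT6 livers and 89244, 62370 and 53510 in the CT18 livers.

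Among the members nearest the bait, the highest mean on the higher side within 100 kb was on chr5:9057754-9060313, centred 15.5 kb from the bait. It had 17129, 20731 and 3504 counts in the CT6 livers and 44139, 45976 and 30147 in the CT18 livers, or 15681 ± 7034 CPM (SD, n = 6). CT6 liver 3 was the lowest of the 6 on the CPM scale, at 4054 CPM, and CT18 liver 2 the highest, at 23758 CPM. Its inner neighbour but one, chr5:9054054-9057704 at 12.4 kb, had 13136, 26858 and 2558 counts in the CT6 livers and 42703, 15449 and 31400 in the CT18 livers. Both had own counts in all 6 livers, and CT6 liver 3 was low on both.

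On the lower side the highest mean within 100 kb was on chr5:8985097-8993393, centred at -54.3 kb. It had 42, 16771 and 4645 counts in the CT6 livers and 43518, 42946 and 36469 in the CT18 livers, or 12659 ± 9339 CPM. The CT18 livers, at 16290, 22193 and 22996 CPM, all lay above the CT6 livers, at 47.9, 9054 and 5374 CPM. The fitted log2 difference was 1.63 ± 1.12 (CT18 over CT6 with its standard error) and did not pass the test (edgeR quasi-likelihood test, adjusted p = 0.668).

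Only 2 fragments were among the 20 highest of the window in all 6 livers, and both lay on the lower side; they are singled out here after their values were seen. The first, chr5:8996069-8997765 at -46.6 kb, had 11855, 20929 and 16202 counts in the CT6 livers and 39331, 10690 and 15604 in the CT18 livers, or 12277 ± 4514 CPM. The second, chr5:9010576-9013582 at -31.4 kb, had 19895, 24428 and 6234 counts in the CT6 livers and 20296, 22230 and 9531 in the CT18 livers, or 11367 ± 6199 CPM. On both, the CT6 and CT18 livers overlapped. The first belongs to the bin at 31.6 to 56.2 kb of the lower side, where mean density was 2562 CPM per kb, against 533 at the same distance on the higher side. The lower side was the denser in that bin in all 6 livers. The second lies just nearer to the bait than the bin's inner edge.

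Between 100 and 300 kb, the fragment with the highest mean on the higher side was chr5:9151650-9153406, centred at 109.0 kb. It had 5450, 10641 and 4137 counts in the CT6 livers and 1194, 305 and 11981 in the CT18 livers, which are 6221, 5744 and 4786 CPM against 447, 158 and 7555 CPM. The CT6 livers lay close together, and the CT18 livers fell on either side of them. On the lower side it was chr5:8881671-8891109 at -157.1 kb, with 6692, 3195 and 2 counts in the CT6 livers and 6823, 95 and 15882 in the CT18 livers. Its livers ran from 2.31 to 10015 CPM, with both times spanning more than 100-fold.

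Beyond 300 kb, the highest means came from few livers. The fragment chr5:8161340-8165287 at -880.2 kb had 7033, 3520 and 5 counts in the CT6 livers and 3, 2 and 1 in the CT18 livers, so its mean rested on CT6 livers 1 and 2. The fragment chr5:9398115-9400431 at 355.8 kb had 2, 48 and 8097 counts in the CT6 livers and 3, 290 and 106 in the CT18 livers, so CT6 liver 3 set its mean. A fragment could also reach a high mean with a count in every liver and an own count in 1: chr5:8105151-8107394 at -937.2 kb had 1, 13 and 8540 counts in the CT6 livers and 2, 1 and 1 in the CT18 livers. The fragment chr5:9249218-9249531 at 205.9 kb had 7941, 2 and 7 counts in the CT6 livers and 5, 4 and 10930 in the CT18 livers, from 1 liver of each time. The rule also took, on each side, the 5 fragments beyond 100 kb that had a count in all 6 livers and stood highest above the mean of their distance bin. Of these 10, 8 had own counts in 3 livers or fewer, and the exceptions were chr5:9151650-9153406 (5 livers) and chr5:9418193-9422695 (4 livers).

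The only fragments beyond 200 kb with own counts in at least 4 livers were 2, named here after their values were seen. One was chr5:9418193-9422695 at 376.9 kb, with 2, 6693 and 14 counts in the CT6 livers and 5182, 505 and 3812 in the CT18 livers, or 1373 ± 1507 CPM. The other was chr5:8679744-8682039 at -362.6 kb, with 101, 171 and 0 counts in the CT6 livers and 766, 62 and 0 in the CT18 livers, or 87.7 ± 109 CPM. The first stood 5.07 times above the mean of its distance bin, and the second at 0.324 times it.

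The number of livers that shared a fragment fell with distance. Own counts in 4 to 6 livers were found for 31 of 37 fragments at 10 to 50 kb, 23 of 32 at 50 to 100 kb and 20 of 63 at 100 to 200 kb. They were found for 0 of 52 at 200 to 300 kb, 2 of 104 at 300 to 500 kb and 0 of 121 at 500 to 1000 kb. Conversely, the share of fragments with own counts in no liver or 1 liver rose from 8.11% at 10 to 50 kb and 6.25% at 50 to 100 kb to 30.2%, 55.8%, 60.6% and 75.2% in the zones beyond. Of the 2196 fragments beyond 1 Mb, 96.7% had own counts in no liver or 1. Over the whole window 23 fragments had own counts in all 6 livers, 76 in 4 to 6, 178 in 1 and 29 in none.

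The 23 fragments with own counts in all 6 livers lay 12.4 to 133.6 kb from the bait, with a median of 44.8 kb. They comprised 16 on the lower side and 7 on the higher side. The 22 fragments beyond 100 kb with own counts in at least 4 livers comprised 17 on the lower side at 100 to 200 kb, 3 on the higher side at 100 to 200 kb and the 2 named above. Counting any count gave a different picture: 124 fragments had a count in all 6 livers, 65 of them beyond 100 kb. Of these 65, own counts stood in all 6 livers for 2, in at least 4 for 19 and in 1 for 10. Detection in every liver beyond 100 kb thus came in large part from values at or below the floor for shared counts.

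**Figure D3:**
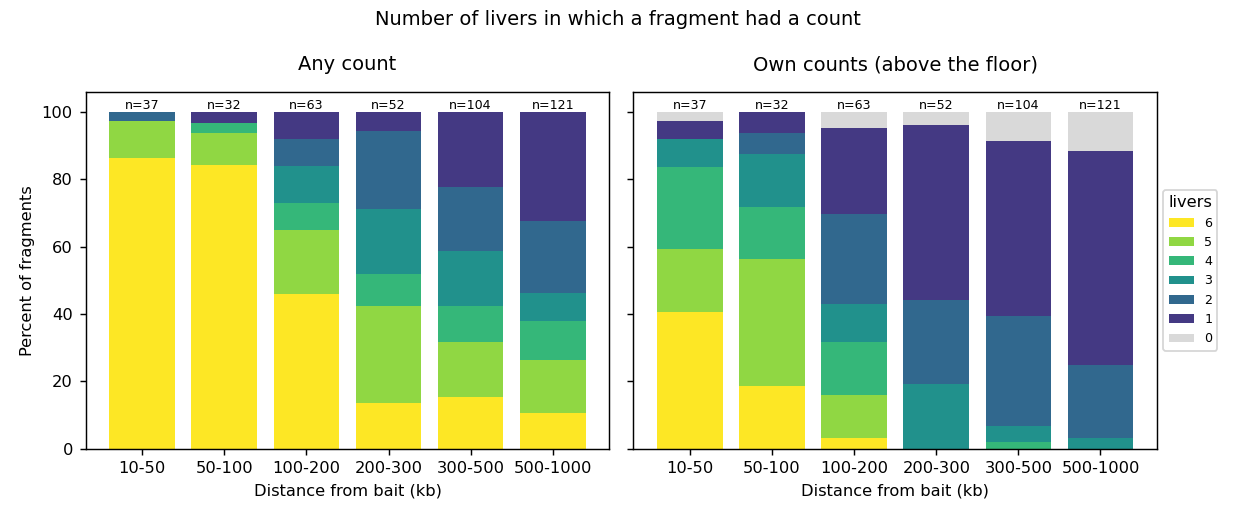
Percent of fragments (stacked bars) by the number of livers, 0 to 6, in which a fragment had a count, in 6 distance zones in kb with the number of fragments above each bar; the left panel takes any count and the right panel own counts. With own counts, the part of the bar for 4 to 6 livers is 83.8% at 10 to 50 kb, 31.7% at 100 to 200 kb and 1.92% or less beyond 200 kb.

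Agreement between livers was measured by Spearman's rho of log2(CPM + 1) over the 409 fragments, for the 15 pairs of livers. It is a description: fragments of a library share its depth, its amplification and the fall with distance, and the shared counts link some pairs. The pairs ran from 0.39 to 0.69, with a median of 0.47. The highest was CT18 livers 1 and 2, at 0.69, followed by CT6 livers 2 and 3, at 0.59, which are also the pairs with the most shared low counts. With own counts the pairs ran from 0.22 to 0.38, with a median of 0.31. Livers of the same time had a median of 0.33 by own counts and livers of different times 0.30.

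Distance carried much of this agreement. With the mean of each distance bin removed, the median rho of the pairs was 0.21, and with own counts 0.094, with a range of -0.045 to 0.130. Within 200 kb of the bait (132 fragments) the median was 0.58, and with own counts 0.43. Beyond 200 kb (277 fragments) it was 0.18, and with own counts -0.085. A rho slightly below 0 follows in part from construction there, because a fragment was listed for a count in at least 1 library and the floor is set by the highest library. Summed in 39 windows of 50 kb, with any count taken and the fall with distance left in, the counts had a median rho of 0.70. The range was 0.52 to 0.78. Among fragments beyond 1 Mb the median was 0.049, and with own counts -0.133.

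The sets of the 20 highest fragments of each liver held 61 different fragments. Of these, 35 were in the set of 1 liver, 9 in the sets of 4 to 6 and 2 in all 6. A pair of livers shared 4 to 12 of 20, with a median of 9. Among fragments at 10 to 50 kb with a count in all 3 livers of a time, the highest liver exceeded the lowest by a median of 21.7-fold at CT6 and 3.92-fold at CT18. At 50 to 100 kb the medians were 101-fold and 10.8-fold, and at 100 to 200 kb 574-fold and 56.3-fold. Beyond 200 kb the order was the other way, with 510-fold at CT6 and 1131-fold at CT18. These folds take any count, so the lowest liver can stand at a value below the floor for shared counts. They were not computed for own counts, which beyond 200 kb stood in 4 to 6 livers for only 2 of 277 fragments. The part of depth and of shared counts in the folds was not tested.

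**Figure D4:**
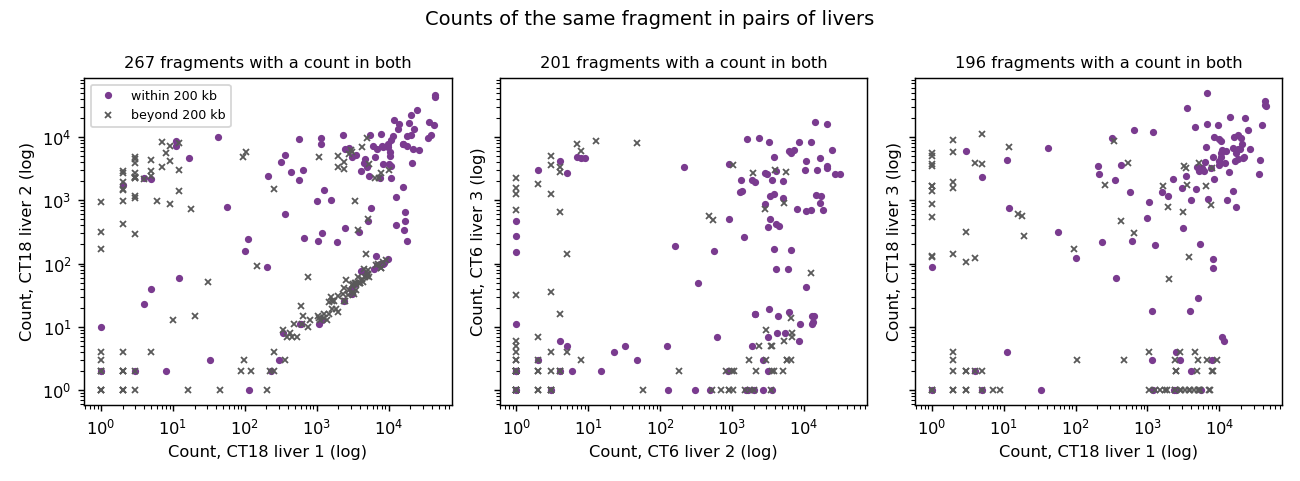
Counts of the same fragment in 3 pairs of livers (log axes, fragments with a count in both), with fragments within 200 kb of the bait as filled circles and those beyond 200 kb as crosses. In the pair of CT18 livers 1 and 2 many fragments follow a diagonal band near 1.29% of the first liver's count, a band that the pair of CT18 livers 1 and 3 does not show.

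Fragment length had little relation to the count. Spearman's rho between length and CPM over the 409 fragments was -0.024 to 0.046 in the 6 livers, with a median of 0.025, against -0.53 to -0.44 for distance and CPM. The mean CPM of a fragment, averaged over livers, was 889 for the 125 fragments under 1 kb, 899 for the 90 of 1 to 2 kb, 1187 for the 94 of 2 to 4 kb, 849 for the 77 of 4 to 8 kb and 1127 for the 23 over 8 kb. The share of fragment and liver combinations with own counts was 32.3%, 36.1%, 34.0%, 35.5% and 34.8% in the same order. Because long and short fragments had similar counts, counts per kb of fragment fell with length, from 1946 CPM per kb under 1 kb to 615.5, 413.0, 146.3 and 109.5. Fragments under 1 kb made up 5.0% of the listed length and 28.1% ± 2.21 of the counts (SD, n = 6).

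The comparison of CT18 with CT6 asks whether the neighbourhood of lnc-Crot differs between the 2 times. The window's share of chromosome 5 counts was 43.1% ± 2.74 at CT18 and 35.9% ± 4.06 at CT6 (SD, n = 3), a difference of 7.25 percentage points. The groups did not overlap, and the two-sided exact permutation test gave p = 0.1, the smallest that 3 against 3 allows (adjusted p = 0.125). The share on the bait fragment itself was 10.9% ± 1.27 at CT18 and 14.5% ± 1.72 at CT6, and the share beyond 1 Mb was 32.1% ± 1.22 and 37.4% ± 3.43. These shares and the window's add up with the rest to the whole library, so a rise in one and a fall in another cannot be told apart. The CT18 libraries were on average the deeper ones, and the part of depth was not tested.

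The higher side's share was 44.9% ± 1.88 at CT18 and 40.8% ± 2.2 at CT6, a difference of 4.13 points, again without overlap (exact permutation p = 0.1, adjusted p = 0.125). Without CT6 liver 3 and CT18 liver 2 the difference was 1.79 points, and without fragments under 100 bases it was 4.71 points (exact permutation p = 0.3), with overlap between the groups. The decay slope was -1.26 ± 0.08 at CT18 and -1.13 ± 0.21 at CT6, a difference of -0.13 with overlapping groups (exact permutation p = 0.4, adjusted p = 0.4). CT6 liver 3 carried much of it, since without that liver the difference was -0.0074, and with the window opened at 20 kb it was -0.0075.

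**Figure D5:**
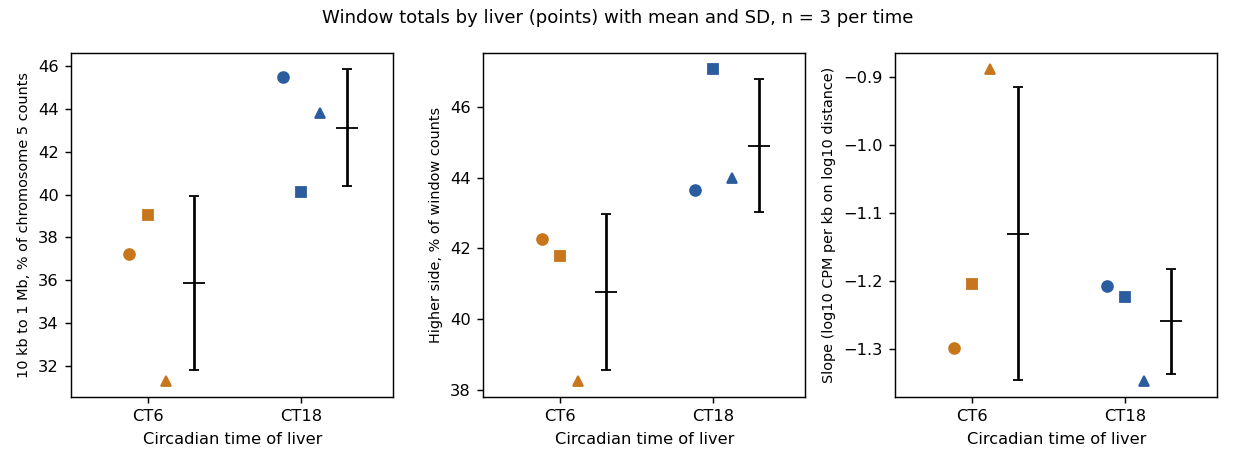
Per liver (symbols; circle, square and triangle for livers 1, 2 and 3), the percent of chromosome 5 counts in the window, the percent of window counts on the higher side and the decay slope, at CT6 and CT18, with the mean and SD of each group (n = 3) as a black bar. The CT18 livers lie above the CT6 livers in the first 2 panels, and the groups overlap in the slope.

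No single fragment of the window passed the test between the times. Of the 409 members 151 had enough counts to be tested, among 178 fragments tested on chromosome 5. At an adjusted p under 0.05 (edgeR quasi-likelihood test) 0 of the 151 were called, against 0.562% of all fragments tested. That share is the bait fragment alone (log2 CT18 over CT6 of -0.97 ± 0.22, edgeR adjusted p = 0.0187). The call of the bait depended on the scaling: with library totals and no factor, edgeR called 0 of the 178 fragments. At an unadjusted p under 0.05 there were 19 members, 12.6%, against 14.6% of all fragments tested: 15 higher at CT18 (11.8% of all tested were) and 4 lower (2.81% of all tested were). All 19 had own counts in 3 livers or fewer. The counts of the groups, as CPM, did not overlap for 20 members that were higher at CT18 and 2 that were lower, 14.6% of the members tested against 15.7% of all. The members' shares were near those over all fragments tested in each of these counts. Because 151 of the 178 were themselves members, this nearness was largely set in advance. It does not compare the members with the rest of the chromosome. Over all 409 members, tested or not, the groups did not overlap for 33 that were higher at CT18 and 15 that were lower, 11.7%. A fragment could enter the test through its counts at 1 time alone, so the split of directions among tested members depends on the filter.

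The median log2 difference of the 151 members was 0.05, against -0.03 for all 178. This centre depended on the scaling: with DESeq2 size factors in edgeR the medians were -0.86 and -0.89, and with library totals alone 0.38 and 0.35. The standard error of a fragment's log2 difference was 2.74 in the median, with a range of 0.82 to 4.68, so that at this spread between livers only very large differences could be resolved. DESeq2 called 39 of the 169 members it tested, 23.1%, against 23.5% of the 388 fragments tested on chromosome 5, with 23 higher and 16 lower at CT18. Of the 39, 30 had own counts in 2 livers or fewer and 0 in 4 or more.

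The members with the smallest p by edgeR had counts in 1 group and next to none in the other. The filter on low counts asks for enough counts in 3 libraries, which the livers of 1 time can supply alone. A pattern of this kind is thus partly set by which fragments could be tested. On chr5:9283565-9284306 at 240.4 kb there were 1, 2 and 0 counts in the CT6 livers and 6451, 2214 and 1664 in the CT18 livers (log2 difference 10.45 ± 3.99, edgeR adjusted p = 0.271). All 3 CT18 livers had own counts and no CT6 liver did. On chr5:9164532-9165202 at 121.4 kb there were 5, 4 and 2 counts in the CT6 livers and 12502, 412 and 5909 in the CT18 livers (9.18 ± 3.57, edgeR adjusted p = 0.271). In the other direction, chr5:8858342-8859759 at -184.5 kb had 1245, 3205 and 7 counts in the CT6 livers and 8, 2 and 0 in the CT18 livers (-9.93 ± 4.03, edgeR adjusted p = 0.271). On chr5:8908011-8908165 at -135.4 kb there were 2, 2875 and 2639 counts in the CT6 livers and 33, 3 and 1 in the CT18 livers (-9.05 ± 3.77, edgeR adjusted p = 0.271). In both of these, 2 CT6 livers had own counts and the third had as few counts as the CT18 livers. Fitted differences against groups with so few counts depend on the fit's prior count and are no measure of fold.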

How the data were processed

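The authors deposited raw counts of reads per HindIII fragment of chromosome 5, 1 table per liver, with fragments without a read left out. The submitters' processing notes name TopHat2, Bowtie, bedtools 2.19.1 and mm9; which tool did what, and how reads were filtered, was not given in the sources. Tables were joined on start and end, missing fragments were set to 0, and CPM used the chromosome 5 total of each library. Groups came from the sample titles.

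Fragments were tested with edgeR 4.0.16 (TMM factors, filterByExpr, glmQLFTest, R 4.3.3) over all of chromosome 5 with Benjamini-Hochberg adjustment, and with DESeq2 1.42.0 as an alternative. The edgeR test was checked on simulated counts, but the pass condition used a smaller spread between libraries than these data have. The check therefore does not show how well differences are found at the spread seen here. Values per library were compared by exact permutation tests in Python 3.11.15. The p-values measure the spread between livers. Slopes used 8 log-equal distance bins, an empty bin being left out.

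Named fragments were, on each side, the highest mean CPM at 10 to 100, 100 to 300 and 300 to 1000 kb, the 5 beyond 100 kb with a count in all 6 livers and the highest ratio to their distance bin, and, as none was called, the 2 smallest p in each direction. Members, rules and tests were chosen with earlier results of these data known. The floor for shared counts, the removal of 1 library of each pair that shares counts and the removal of fragments under 100 bases were added after seeing the data.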

Additional observations from a re-analysis of the deposited data

How the results depend on the processing

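Depth and amplification limit single fragments: shallow libraries had own counts on few fragments, and intervals cover counting error only. The slope difference between times turned positive when fragments with a count were counted in place of reads, at 0.046, and at 0.093 with shared counts also set to 0 (exact permutation p of 0.4 and 0.3). With 1 library left out in turn it was -0.21 to -0.0074. The window share difference was then 4.97 to 8.85 points and the higher side's 2.87 to 4.88 (exact permutation p of 0.1 or 0.2). By number of fragments with a count the 2 differences were 0.465 and 0.415 points (exact permutation p of 0.8 and 0.6). By number with own counts they were 1.64 and 6.52 points (exact permutation p of 0.1 for both). The log2 ratio of the sides was -0.47 to -0.36 and the slope difference between sides -1.46 to -1.15 with 1 library left out, each at p = 0.0625 (exact, the smallest with 5 libraries). Without CT6 liver 3 and CT18 liver 2 they were -0.41 and -1.29 (exact p = 0.125, the smallest with 4). The slope difference between sides was -0.55 with the window opened at 20 kb and -0.29 by number of fragments with own counts. The median rho between livers was 0.31 with shared counts set to 0 and 0.45 to 0.48 with 1 library left out; the rho of length was then 0.021 to 0.030. DESeq2 called 39 members, where edgeR called 0 (19 at an unadjusted p under 0.05). With 1 library left out edgeR called 0 to 1: without CT6 liver 1 it called chr5:8105151-8107394 (fitted log2 -13.54, adjusted p = 0.00278), where CT6 liver 3 alone had an own count. Other edgeR settings called 0 members. Where not stated, the cause of a change was not tested.

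Same-numbered livers of the 2 times were not linked by the labels, and their deviations correlated at -0.02 to 0.13, with not every library closest to its own number. With the number as a replicate block edgeR called 0 members, and 10 had an unadjusted p under 0.05. In the paired analysis the differences of 7.25 and 4.13 points and of -0.13 in slope had exact sign-flip permutation p of 0.25, 0.25 and 0.75, where 0.25 is the smallest possible.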

Other observations

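Neighbouring fragments shared little beyond distance. Over the 304 pairs of adjacent members separated only by the HindIII site, Spearman's rho of their CPM with the distance trend removed had a median of 0.079 over the 6 livers, and 0.113 with own counts. As a single example, picked after its values were seen, at -45.7 kb the fragment chr5:8997771-8997772, which is 1 base long, had 10454 CPM in CT6 liver 1 and 0.374 to 3.24 CPM in the other 5, beside chr5:8996069-8997765 with 5524 to 18744 CPM in all 6.

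In windows of 50 kb, own counts in all 6 livers beyond 500 kb were found in 1 window, -550 to -500 kb. None of its 13 fragments had own counts in 4 livers, and each liver had own counts on 2 to 4 of them. The other 18 windows beyond 500 kb with a listed fragment had own counts in 1 to 5 livers. At -200 to -150 kb 9 of 22 fragments had own counts in 4 livers or more, and at 150 to 200 kb 1 of 17. These windows were picked after their values were seen.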
